A study of Mus musculus with 2 samples.

Results

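The genes described here are 5 transcription factors of neuron formation, Neurod4, Nhlh2, Isl1, Lhx5 and Pax6. They were taken as the genes whose symbol in the platform annotation is exactly 1 of these names, and they are 5 of 13697 genes named on the array. Each had 1 probe: 887284 for Neurod4, 918786 for Nhlh2, 333751 for Isl1, 657343 for Lhx5 and 630797 for Pax6. The genes were chosen by their intensities on these arrays, so the values below describe them and support nothing further. Neurod4 and Nhlh2 are basic helix-loop-helix (bHLH) factors and Isl1 and Lhx5 are LIM-homeodomain factors, while Pax6 belongs to neither family and carries a paired domain and a homeodomain.

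The samples were mouse embryoid bodies, small spheres of differentiating cells, grown from Elongin A+/+ or Elongin A-/- embryonic stem (ES) cells in DMEM/F12 with serum and N2 and exposed to 2 µM retinoic acid until day 4. Both genotypes received retinoic acid, and no untreated sample was used here. Elongin A is a subunit of the Elongin complex, which stimulates elongation by RNA polymerase II, and the question is how gene expression under retinoic acid differs without it. There was 1 array per genotype, and how many ES cell clones and bodies went into it is not stated in the labels. An effect of genotype and one of the clone, the culture or the array therefore cannot be told apart.

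In the neural tube, retinoic acid helps progenitors to become neurons. Proneural bHLH factors start the programme, later bHLH factors such as those of the NeuroD and Nhlh families carry it on as cells leave the cycle, and LIM-homeodomain factors then give classes of neurons their identity. Pax6 acts earlier, in dividing progenitors. HES, HEY and ID proteins and Notch signalling oppose the bHLH activators.

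Each array held 32440 probes, with deposited medians of 1.02 (Elongin A+/+) and 1.03 (Elongin A-/-). Precision is limited by having a single array of each genotype. Intensities are in arbitrary units after quantile normalisation, unless given as deposited, and depend on the probe as well as on the transcript, so fold differences are taken within a gene. The sums over marker lists and the search for genes of like readings, given last, mix probes and are rough. The floor was the array median, 1.03. Log2 differences are Elongin A-/- minus Elongin A+/+, and "at least" marks a bound, for a gene that 1 array did not show above the floor. No error between cultures exists and no difference was tested. The only error available is the disagreement between probes of 1 gene, with an SD of 0.43 on the log2 scale over 224 genes above the floor on both arrays. The Eloa probe, for Elongin A itself, read 3.87 on the Elongin A+/+ array and 3.57 on the Elongin A-/- array, a log2 difference of -0.12 that turned to 0.05 as deposited. The labels do not say where this probe lies relative to the deleted part, so it does not check them.

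The sequences upstream of the genes are shown because bHLH factors bind the E-box CANNTG. Any part of these sequences in the readings was not tested. Each is the RefSeq sequence (GRCm38.p6) before the most upstream listed start, on the gene's strand, for the 4 members found in the promoter table. Lhx5 was not matched. Capitals mark CANNTG. The windows are chr10:130280255-130280504 on the minus strand for Neurod4, chr3:102009895-102010110 on the plus strand for Nhlh2, chr13:116309689-116309938 on the minus strand for Isl1 and chr2:105668646-105668895 on the plus strand for Pax6.
Neurod4: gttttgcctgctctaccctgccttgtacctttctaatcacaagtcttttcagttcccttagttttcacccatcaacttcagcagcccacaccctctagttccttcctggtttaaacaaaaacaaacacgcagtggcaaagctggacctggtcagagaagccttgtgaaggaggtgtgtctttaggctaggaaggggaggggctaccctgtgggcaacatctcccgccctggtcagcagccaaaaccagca
Nhlh2: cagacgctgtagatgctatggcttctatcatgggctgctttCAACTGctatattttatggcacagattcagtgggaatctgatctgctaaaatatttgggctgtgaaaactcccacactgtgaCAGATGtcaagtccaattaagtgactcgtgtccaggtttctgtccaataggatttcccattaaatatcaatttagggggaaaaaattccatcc
Isl1: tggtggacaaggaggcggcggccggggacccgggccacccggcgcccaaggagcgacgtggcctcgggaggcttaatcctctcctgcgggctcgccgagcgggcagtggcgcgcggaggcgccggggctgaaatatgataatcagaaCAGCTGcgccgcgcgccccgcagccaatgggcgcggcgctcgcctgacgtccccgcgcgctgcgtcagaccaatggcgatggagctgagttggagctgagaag
Pax6: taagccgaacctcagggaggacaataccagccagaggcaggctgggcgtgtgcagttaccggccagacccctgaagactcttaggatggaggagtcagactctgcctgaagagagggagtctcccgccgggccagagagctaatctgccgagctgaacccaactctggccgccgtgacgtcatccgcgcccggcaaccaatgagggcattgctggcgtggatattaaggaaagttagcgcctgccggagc

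CANNTG reads the same on both strands. It occurred 2 times in the 216 bases before Nhlh2, beginning 175 and 93 bases before the end of the window, and 1 time in the 250 bases before Isl1, beginning 103 bases before the end. It occurred 0 times before Neurod4 and 0 times before Pax6. Of 32851 listed promoters, 66.2% held CANNTG in 250 bases and 61.6% in 216 bases. The match before Isl1 was CAGCTG, which 13.0% of promoters held in 250 bases. The homeodomain core TAAT, searched on both strands, overlapped no CANNTG match here and occurred 1 time before Neurod4 and 2 times each before Nhlh2, Isl1 and Pax6, and 54.9% of promoters held it in 250 bases (52.0% in 216 bases). AGGTCA, the half-site of retinoic acid receptors, was searched on both strands and occurred 0 times in each window, against 14.0% of promoters in 250 bases and 12.3% in 216 bases. The Isl1 window held 33 CpG dinucleotides and 71.2% G and C, and the Pax6 window 15 and 60.8%. The windows of Neurod4 (51.2%) and Nhlh2 (41.2%) held 2 CpG dinucleotides each. Neurod4, Nhlh2 and Isl1, the lower members with a window here, therefore had upstream windows of unlike composition.

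Of the 5 factors, 4 were lower on the Elongin A-/- array by 4.06-fold to 6.49-fold, and Pax6 was 1.38-fold higher. All 5 lay above the floor on both arrays, so none of these differences is a bound. Among all 9568 measured genes 571 (5.97%) were at least 2-fold lower, and among the 7529 above the floor on both arrays 351 (4.66%) were. At 4-fold the latter share was 0.624%, or 47 genes, and 4 members passed that size, or 2 with the values as deposited or with chromosome medians removed (Nhlh2 and Lhx5 fell short), and 1 with a pseudocount or a 75th-percentile floor. This contrast chose the genes, so nothing is read from the count of 4 against these shares.

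Neurod4, a bHLH activator that acts after the proneural factors in differentiating neurons, read 20.4 on the Elongin A+/+ array and 3.13 on the Elongin A-/- array (19.5 and 3.31 as deposited). That is 6.49-fold lower, a log2 difference of -2.70, and the widest among the 5. It stood at place 13 from the lowest of the 7529 genes above the floor on both arrays. Its reading on the Elongin A-/- array was 3.05 times the floor, so its fold rests on a dim value.

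Nhlh2, a bHLH factor of newly formed neurons, read 90.2 on the Elongin A+/+ array and 22.2 on the Elongin A-/- array (87.5 and 23.0 as deposited). It was 4.06-fold lower, a log2 difference of -2.02, at place 44 of 7529. Its dimmer reading was still 21.6 times the floor, so Nhlh2 is the lower member whose fold depends least on the floor. Of genes with a geometric mean intensity of 16 to 64 on the arrays, where Nhlh2 lies at 44.8, 2.06% were at least 2-fold lower. The share was 4.01% of those between 4 and 16 and 9.45% of those between 1 and 4. These shares describe brightness alone, and since Nhlh2 was chosen by its values nothing is read from its place among them.

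Isl1, a LIM-homeodomain factor of motor and sensory neurons that cardiac progenitors also use, read 10.03 on the Elongin A+/+ array and 2.24 on the Elongin A-/- array (9.68 and 2.35 as deposited). It was 4.47-fold lower, a log2 difference of -2.16, at place 36. The Elongin A-/- reading was 2.18 times the floor, the closest to it of the 5 factors. A floor raised to the 75th percentile of the array turned the difference into a bound of -0.95, short of 2-fold.

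Lhx5, a LIM-homeodomain factor of interneurons and of the developing forebrain, read 12.7 on the Elongin A+/+ array and 2.97 on the Elongin A-/- array (12.2 and 3.13 as deposited). It was 4.28-fold lower, a log2 difference of -2.10, at place 39. Its Elongin A-/- reading was 2.89 times the floor, and under the same raised floor its difference was a bound of -1.29.

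Pax6, the progenitor factor, read 9.32 on the Elongin A+/+ array and 12.9 on the Elongin A-/- array (8.94 and 13.3 as deposited). It was 1.38-fold higher, a log2 difference of 0.46, which is 1.09 times the SD between probes of 1 gene. Of the genes above the floor on both arrays, 81.6% had the same or a lower difference than Pax6. It was the member whose readings on the arrays lay closest together.

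**Figure D1:**
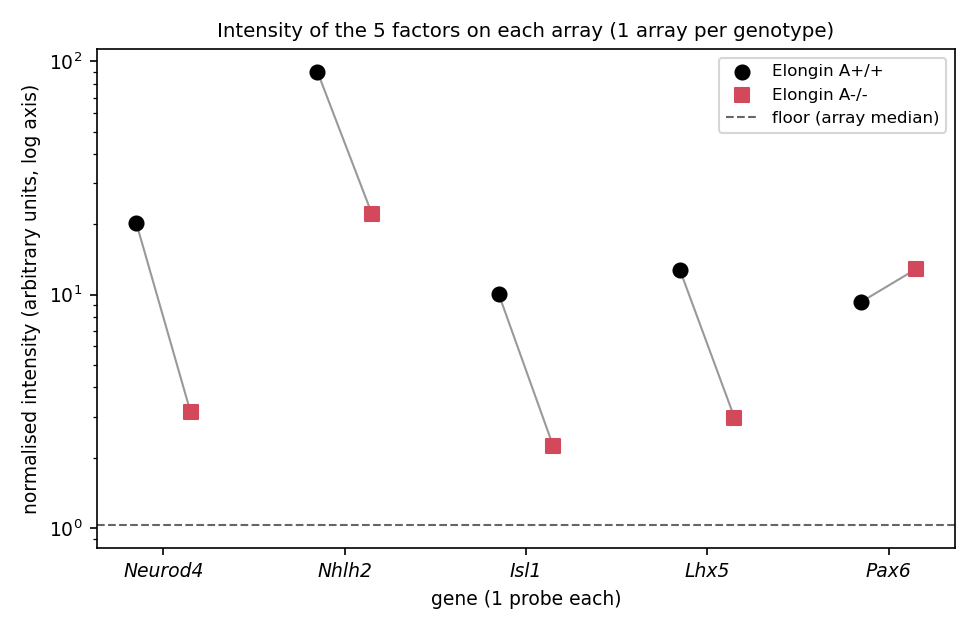
Normalised intensity (log axis, arbitrary units) of the 5 factors on the Elongin A+/+ array (circles) and the Elongin A-/- array (squares), 1 probe and 1 array each, with the floor dashed. Nhlh2 reads 90.2 and 22.2, far above the floor, Neurod4, Isl1 and Lhx5 come within 2.18 to 3.05 times the floor, and Pax6 goes from 9.32 to 12.9.

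The 4 lower members were close to each other in the size of their differences, from which nothing is read, since these values chose them. Over their 6 pairs the widest gap was 0.68 on the log2 scale, between Neurod4 and Nhlh2, which is 1.12 times the SD of a difference between probes (0.60). Nhlh2, Isl1 and Lhx5 differed among themselves by 0.06 to 0.14. The order of these 3 lies within the disagreement between probes. The differences of the 4 lay 2.48 to 3.16 below that of Pax6, a gap that the choice of genes by these values already holds.

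The chromosomes that carry the factors had medians close to that of all measured genes (-0.02). They were -0.07 over 446 genes of chromosome 10 (Neurod4), -0.05 over 459 of chromosome 3 (Nhlh2), -0.10 over 354 of chromosome 13 (Isl1), -0.13 over 574 of chromosome 5 (Lhx5) and -0.05 over 784 of chromosome 2 (Pax6). The 4 lower members lie on 4 different chromosomes. With each chromosome's median removed, all 4 stayed at least 2-fold lower.

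**Figure D2:**
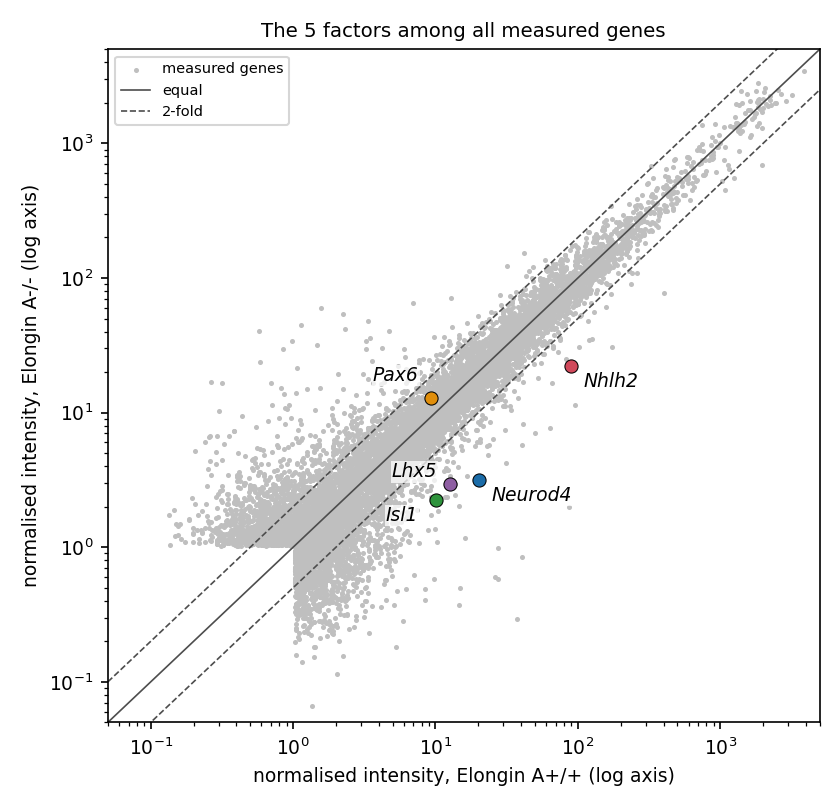
Normalised intensity on the Elongin A-/- array against the Elongin A+/+ array (log axes) for the 9568 measured genes (grey), with the 5 factors coloured. The solid line marks equal readings and the dashed lines 2-fold; Neurod4, Nhlh2, Isl1 and Lhx5 lie below the lower dashed line and Pax6 just above the solid one.

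The list of other neuronal bHLH activators, which also holds OLIG factors and general partners (E-proteins), lay within 2-fold in 10 of 14 measured cases. Of 19 listed genes 17 were named on the array and 14 measured, with a median of -0.16. At least 2-fold lower were 2 (14.3%) and higher 2, against 5.97% and 6.76% of all measured genes. Below 0 were 9 of the 14 and above 0 were 5, and the median was -0.35 over the 11 above the floor on both arrays. The lower ones were Olig3, a factor of dorsal progenitors (40.8 to 5.71, 7.14-fold), and Neurog2, a proneural factor that acts upstream of NeuroD factors (8.07 to 2.42, 3.33-fold). Neurog1, the related proneural factor, read 5.59 and 3.84, and Neurod1 read 6.80 and 4.33, both within 2-fold. Nhlh1, the closest relative of Nhlh2, read 2.54 and 4.24, so the pair had differences of opposite sign (0.74 against -2.02). The 2 higher genes, Neurod6 (at least 3.22-fold) and Ptf1a (at least 2.60-fold), were below the floor on the Elongin A+/+ array. The E-proteins Tcf3 (3.85 and 5.17) and Tcf12 (11.4 and 10.2), general partners of these activators, were within 2-fold. Neurod2, Atoh1 and Olig1 were below the floor on both arrays.

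Repressors of bHLH factors lay within 2-fold or higher. Of 12 listed HES, HEY and ID genes 7 were measured, and the median was 0.72. Of the 7, 2 were at least 2-fold higher and 0 lower, against 6.76% and 5.97% of all measured genes. Hey1 went from 4.35 to 16.9 and Hes7, best known from the somite clock, from 1.53 to 5.80. Hes5, a Notch target of neural progenitors, read 75.6 and 125, Hes1 80.3 and 66.9, and Id1 83.0 and 54.1. A floor at the 75th percentile gave this list a median of 0.16, and one at the 25th percentile 0.23. Hey1 is also a gene of endothelium, whose markers stood higher on the same array, as given below.

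Notch ligands, receptors and modifiers lay within 2-fold in 11 cases, with 12 of 17 listed genes measured and a median of -0.22. Among them 1 was at least 2-fold lower and 0 higher, against 5.97% and 6.76% of all measured genes. Dll1, the ligand carried by newborn neurons, was the lower one (4.76 to 2.33, a log2 difference of -1.03). It lay within 2-fold with the deposited values (-0.88), after loess (-0.997) and with a pseudocount (-0.79), and with the deposited values Dlk1 passed 2-fold instead (1.08). Numbl, an antagonist of Notch, read 3.10 and 1.58, Mfng, which modifies the receptor, 20.3 and 12.3, and Dlk1, a non-canonical ligand, 21.9 and 43.4.

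Among the other LIM factors and their cofactors, Lhx1 was the one furthest lower. Of 19 listed genes 16 were named and 9 measured, with a median of 0.16. Measured genes at least 2-fold lower were 0 and higher 2, against 5.97% and 6.76% of all measured genes. Lhx1, the closest relative of Lhx5, had 5.08 and 2.79, a log2 difference of -0.87. The median over chromosome 11, which carries Lhx1, was 0.41, and with chromosome medians removed its difference was -1.28, past 2-fold. Lhx3, a partner of Isl1 in motor neurons, had 3.03 and 3.75, and Isl2, the closest relative of Isl1, was below the floor on both arrays. Ldb1, the adaptor that joins LIM factors into complexes, read 23.0 and 22.5, and Lmo4, a LIM-only protein, 22.1 and 17.8. The genes at least 2-fold higher were Ldb2 (2.54 to 11.2) and Lmo2 (4.13 to 16.3), of which Lmo2 is also a blood and endothelial gene and is in that list too. Lhx2, Lhx4, Lhx9, Lmx1b, Lmo1 and Lmo3 were below the floor on both arrays.

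Progenitor factors lay on either side of 0, more of them below (11) than above (5). Of 26 listed genes 23 were named and 16 measured, with a median of -0.41. The 16 held 2 at least 2-fold lower and 2 higher, against 5.97% and 6.76% of all measured genes. Zic1, a dorsal factor, went from 41.2 to 17.0, and Sox1, an early neural factor, was at least 2.43-fold lower from 2.50. Irx3 (45.5 to 114) and Irx5 (3.92 to 9.62), neighbours on chromosome 8, were higher, and the median of all measured genes of that chromosome was 0.43. With chromosome medians removed neither passed 2-fold (0.89 and 0.86). Sox2, a factor of neural progenitors and pluripotent cells, read 72.2 and 39.5, and Sox3 12.9 and 11.0. Among the PAX relatives of Pax6, Pax3 read 4.95 and 3.56 and Pax7 4.14 and 6.62. Pax8 read 1.87 and 1.13, while Pax2 and Pax5 were below the floor on both arrays. Like Pax6, each measured PAX gene of this list was within 2-fold.

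Other factors of newborn neurons lay within 2-fold in 14 of 15 cases. Of 36 listed genes 27 were named and 15 measured, with 0 at least 2-fold lower, 1 higher (Vsx1, a bound from below the floor to 2.15) and a median of -0.05, whose sign turned under some settings (up to 0.10). Insm1, a zinc finger factor of newborn neurons, read 4.00 and 2.03. Mnx1, the motor neuron factor that works beside Isl1, was below the floor on the Elongin A+/+ array and read 1.44 on the Elongin A-/- array. Over these 5 lists of transcription factors, 4 of 61 measured genes (6.56%) were at least 2-fold lower and 9 (14.8%) higher, against 5.97% and 6.76% of all measured genes, and the median was -0.08. A difference as low as that of Nhlh2, the least of the 4 lower members, was reached by 1 of the 61, Olig3. Because the members were chosen by these values, nothing is read from how few genes reach that size.

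Genes of neuronal structure and synapses included 5 that stood at least 2-fold lower. Of 40 listed genes 34 were named and 25 measured, 5 (20.0%) at least 2-fold lower and 0 higher, against 5.97% and 6.76% of all measured genes, with a median of -0.30, and of -0.79 over the 17 above the floor on both arrays. The absence of higher genes depended on the floor, since 3 were at least 2-fold higher and 6 lower under a 25th-percentile floor, and 4 higher and 6 lower with no floor. Stmn2, a microtubule regulator of growing axons, went from 82.3 to 25.1, and Stmn3 from 25.1 to 10.9. Syt1, the calcium sensor of synaptic vesicles, went from 5.22 to 1.51, and Cntn2, an axonal adhesion molecule, was at least 2.94-fold lower from 3.02. The fifth was Chga, a secretory granule protein (7.09 to 3.08), named after its value was seen. Tubb3, the neuronal beta-tubulin, read 179 and 168, a difference whose sign depended on the scaling. Dcx, of migrating neurons, was below the floor on the Elongin A+/+ array and read 1.41 on the other, Map2 was below the floor on both, and Elavl3 was not named among the probes here. Nhlh2's difference of -2.02 was not reached by the measured values or bounds of these genes, from which nothing is read, since Nhlh2 was chosen by its values. Cntn2, a bound of -1.56, had -2.09 with no floor and a bound of -0.18 when its probes were averaged. In bulk samples such as these, fewer neurons and less RNA per neuron cannot be told apart.

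**Figure D3:**
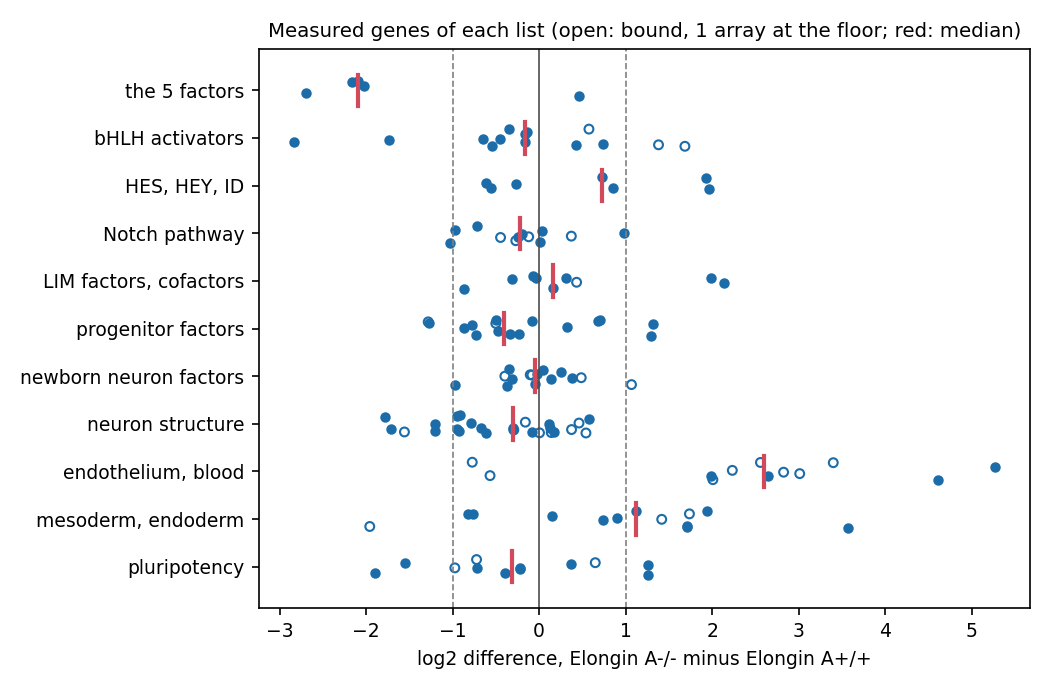
Log2 difference (Elongin A-/- minus Elongin A+/+) of each measured gene, by list, with bounds as open circles, the list's median in red and 2-fold differences dashed. The 5 factors lie at -2.70 to -2.02 and at 0.46. The medians of the bHLH activator list, LIM factors and progenitor factors lie from -0.41 to 0.16. That of the HES, HEY and ID genes lies at 0.72.

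Many measured markers of endothelium, blood and mesoderm stood higher on the array on which the 4 factors stood lower, while endoderm markers went both ways. Of 18 endothelial and blood genes 17 were named and 12 measured, with a median of 2.60. At least 2-fold higher were 10 and lower 0, against 6.76% and 5.97% of all measured genes. Only 4 of the 12 were above the floor on both arrays (median 3.63). The rest of the higher ones were measured only through their Elongin A-/- readings, so their differences are bounds. Under a 75th-percentile floor 5 were at least 2-fold higher. The 2 measured genes that were not among the 10, Spi1 (1.76 to below the floor) and Klf1 (1.52 to below the floor), stood lower by bounds within 2-fold. They were named after their values were seen. Under some settings 1 of them passed 2-fold (Spi1 at -1.76 under a 25th-percentile floor, -2.35 with no floor and -1.02 with a pseudocount, and Klf1 at -1.001 with chromosome medians removed). The summed intensity of the endothelial and blood genes was 20.9 on the Elongin A+/+ array and 196 on the Elongin A-/- array, led by Cldn5 and Kdr. Cdh5, Tie1, Gata1, Ptprc and Alas2 were below the floor on both. Of 20 mesoderm and endoderm genes 18 were named and 13 measured. At least 2-fold higher were 7 and lower 1 (Afp, at least 3.89-fold), against the same shares of all measured genes. The 7 include Ttr, a gene of endoderm (at least 3.34-fold), so they are not mesoderm alone. Sox7 had the widest difference of this list (1.25 to 14.9, 11.9-fold higher), while Foxa1 and Foxa2 had -0.83 and -0.77. The sum over this list was 66.4 and 145, with Mesp1, Tbx6, Msgn1, Gata4 and Apoa1 below the floor on both. Pluripotency genes had 12 of 16 measured, with sums of 65.5 and 65.3. There 2 were at least 2-fold higher and 2 lower, against the same shares of all measured genes. The sum over the neuronal structure genes was 486 and 336. The part of these cell types in the readings of the 5 factors was not tested.

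By likeness over the 2 arrays, the genes nearest to each factor were found by the distance between their log2 intensities, a measure over only 2 points that also reflects how bright each probe is. Nhlh2 lay nearest to Stmn2 (distance 0.22) and Gtf2e1, a subunit of the general transcription factor TFIIE (0.46). Isl1 lay nearest to Rassf10 (0.14) and Hoxd1 (0.24), and Lhx5 to Oxct1, a ketone body enzyme (0.10), and Adh1, an alcohol dehydrogenase (0.16). Neurod4 lay nearest to Ccn2, a matrix protein (0.32), and Oxct1 (0.58). Pax6 lay nearest to Mybbp1a (0.03) and Abcd4 (0.04), which were 1.38-fold and 1.36-fold higher. Stmn2 is the one neuronal structure gene among these neighbours.

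The readings of the 5 factors were recomputed under 9 other settings of scaling, floor and probe summary. Nhlh2 ranged from -2.05 to -1.93 and Pax6 from 0.42 to 0.57. Neurod4 ranged from -2.70 to -1.97, Lhx5 from -2.10 to -1.29 and Isl1 from -2.17 to -0.95, and each of these upper ends came from the floor at the 75th percentile, where the value is a bound. No sign turned in any of the settings, and 4 members were at least 2-fold lower in each except that one, where 3 were. Some settings could not move these values, since each factor had 1 probe and lay above the floor on both arrays. They are the 25th-percentile floor, no floor and averaging over probes. Nhlh2 and Pax6 also lay above the 75th-percentile floor, which left them unchanged.

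**Figure D4:**
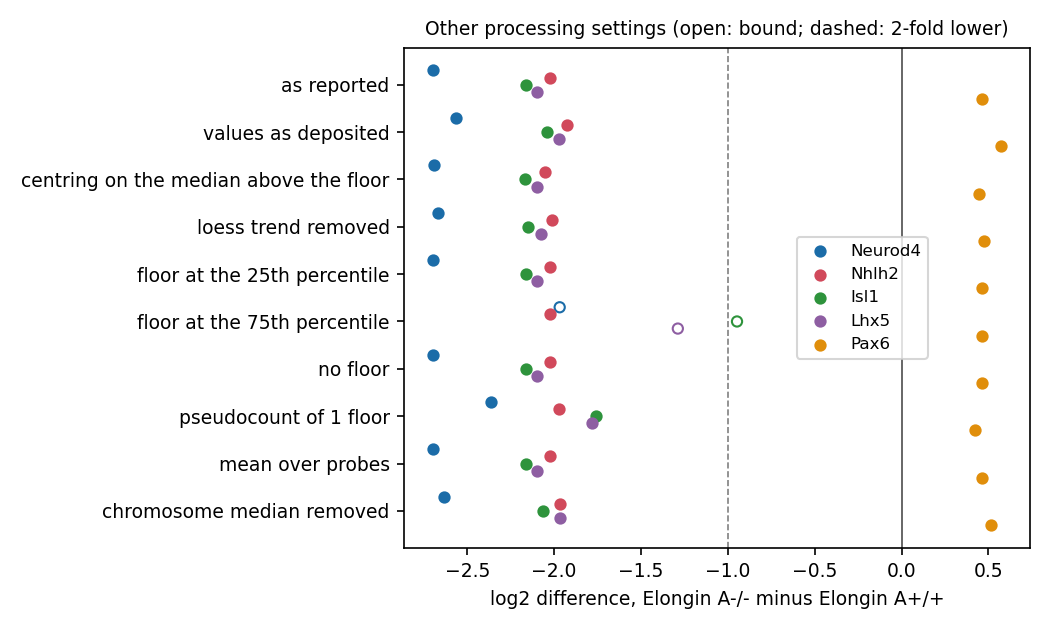
Log2 difference of the 5 factors (colours) as reported and under 9 other settings, with bounds as open circles and 2-fold lower dashed. Nhlh2 and Pax6 hardly move, and the floor at the 75th percentile brings Neurod4, Lhx5 and Isl1 to bounds of -1.97, -1.29 and -0.95.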

How the data were processed

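Total RNA (1 µg) of each sample was transcribed to digoxigenin-labelled cRNA for a chemiluminescent Applied Biosystems array, per the labels' protocols. The deposited table holds linear intensities. How the authors corrected, normalised and filtered them is not stated in the labels. Of the probes, 14253 had 1 gene symbol, and 14245 of these had a gene identifier in the RefSeq table of GRCm38.p6, used for chromosomes only.

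The arrays were quantile normalised, since their deposited 10th, 25th and 75th percentiles differed by -0.16, -0.12 and 0.15 on the log2 scale. Quantile normalisation would hide a shift of most genes in 1 direction. Where a gene had several probes, the brightest by mean log2 value stood for it. Genes above the array median (the floor) on at least 1 array were measured, and lower values were set to the floor. Genes were counted at 2-fold, with no test. A loess trend (span 0.3) was among the alternatives.

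The members, lists and rules were chosen with earlier results of these data known. Named genes were the 5 factors, fixed marker genes and the 2 nearest genes per factor. Measured genes of the bHLH, HES/HEY/ID, LIM and progenitor lists could be named, and the 4 of widest difference in each other list. Chga, Spi1, Klf1, Foxa1 and Foxa2 were named outside this rule, as were genes below the floor on both arrays. Steps were tested on simulated data with python 3.11.15, pandas 2.3.3 and statsmodels 0.14.6.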

Additional observations from a re-analysis of the deposited data

How the results depend on the processing

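With 1 array per genotype, no setting says anything about the spread between cultures, and genes near the floor carry the least certain folds. Each factor had 1 probe above the floor on both arrays, so a 25th-percentile floor, no floor and averaging over probes could not change its value. Of 45 recomputed values of the 5 factors, these fixed ones included, 42 stayed within the SD between probes (0.43). The exceptions came under the 75th-percentile floor, where fewer genes keep a value above the floor: Neurod4 had -1.97, Lhx5 -1.29 and Isl1 -0.95, all bounds. Over the 7 neural lists together 10 of 98 measured genes were at least 2-fold lower and 9 higher. These counts were 4 and 4 under the 75th-percentile floor, 26 and 15 at 1.5-fold, and 4 and 5 at 3-fold, and 14 were higher with no floor. Of 90 list medians 86 stayed within the same SD. The median of the HES, HEY and ID genes was 0.23 under a 25th-percentile floor and 0.16 under a 75th-percentile one. That of the endothelial and blood genes was 1.36 under the 75th-percentile floor and 3.10 without a floor. Of 220 counts of single lists, 170 stayed within 1.5 times. Over all measured genes, 5.97% were at least 2-fold lower and 6.76% higher, while unscaled intensities gave 4.70% and 8.36%. No paired analysis was possible because each genotype had 1 array.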
